A study of Capra hircus with 72 samples.

Results

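IL1R2 (interleukin 1 receptor type 2) and IL18RAP (interleukin 18 receptor accessory protein) are 2 genes of the interleukin 1 receptor family on goat chromosome 11. They were picked by name from 6 deposited tables, each of which lists genes that differed between transported and control goats at an unadjusted p-value under 0.05. Both genes were listed in 1 table, that of blood after 180 min of transport, where they were 2 of 1247 genes. The other 5 tables listed 0 of the 2. Because the pair was chosen on this same contrast, its levels, folds and deposited p-values are given as a description. Refits of the contrast on the same counts are given as checks of processing and are no separate evidence for the pair.

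The animals were intact male Spanish goats, 8 months old, transported by trailer for 180 min or 30 min or kept in pens as controls, all without feed overnight and handled on a pair of days. Blood was sequenced from 7 goats transported for 180 min, 4 transported for 30 min and 7 controls. Muscle was sequenced in a pair of sets, marked 24H and 6D in the deposited tables and not defined in the labels, with 9 goats per group in each. No label gives the day on which a goat was handled, so a difference between the days cannot be told apart from a difference between goats. The labels number each goat, and the values below are given under these numbers.

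Receptors of the interleukin 1 family carry immunoglobulin-type domains outside the cell, and most carry a TIR domain inside it, which recruits MYD88 and starts NF-kB and MAP kinase signalling. IL1R2 is the decoy of the family: it binds interleukin 1 and the accessory chain IL1RAP but has no TIR domain and does not signal, and in people and mice it is known from neutrophils and monocytes and as a gene induced by glucocorticoids. IL18RAP is the chain that joins IL18R1 once interleukin 18 has bound and makes that receptor able to signal, and in people it is known from natural killer cells, T cells and myeloid cells.

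The 180 min blood libraries held 11.3 to 34.1 M counts (M for 1000000, median 26.1 M), and the control blood libraries 10.4 to 39.5 M (median 20.6 M). One library stood apart. Goat 10 of the 180 min group had a median correlation of 0.767 with the other libraries of its group over 847 genes, against 0.865 to 0.913 for the other 6, and it was the shallowest of the 7. It had no count for 31 of those genes, and 26.2% of its counts fell in the listed genes. Control goat 9 had no count for 39 of them. Values that rest on goat 10 are therefore also given without it.

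IL1R2 was far more abundant in the blood of goats transported for 180 min than in that of controls. The deposited table lists it as ENSCHIG00000024086 on the plus strand of chromosome 11 from 6611209 to 6650345, in coordinates whose genome build the sources used here do not name. The normalized counts, which are read counts divided by a size factor of each library, were 2887 in goat 10, 1819 in goat 11, 280 in goat 13, 1742 in goat 14, 7176 in goat 15, 8701 in goat 16 and 1655 in goat 17 of the 180 min group. The controls had 55.6 in goat 1, 239.8 in goat 3, 30.9 in goat 4, 68.4 in goat 6, 106 in goat 7, 82.5 in goat 8 and 232 in goat 9. The groups did not overlap, although goat 13 lay just above the highest controls, goats 3 and 9, while goats 15 and 16 lay well above all others. Every listed gene was selected on this contrast, and a lack of overlap was not particular to IL1R2. PTX3, SLC26A8, NLRP1 and DDIT4 (higher) and LCK (lower) also had none, and the share over all listed genes was not counted.

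The mean of IL1R2 was 3466 ± 3179 normalized counts at 180 min and 117 ± 84.8 in controls (SD, n = 7 each). The difference of the mean log2 values was 4.57 ± 0.65 (SE), 180 min minus control, on the scale of log2(normalized count + 1), and it was 4.50 without goat 10. The authors' deposited table gives IL1R2 a log2 fold change of 4.89 and an adjusted p of 1.95e-10, the lowest p-value in the table. Of the genes listed there, 5.05% were called higher and 0.561% called lower at an adjusted p under 0.05 in the authors' deposited table, which is what "called" means throughout. IL1R2 ranked 19 by fold change among all listed genes and 2 among those called, so its first place by p-value went with a fold that other genes exceeded.

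The increase of IL1R2 differed widely from goat to goat. Set against the control median, IL1R2 was 105-fold higher in goat 16 and 87.0-fold higher in goat 15, between 20.1-fold and 35.0-fold higher in goats 10, 11, 14 and 17, and 3.39-fold higher in goat 13. The coefficient of variation was 91.7% at 180 min and 72.8% in controls. The smallest raw count behind any of these values was 30 reads, in control goat 4, with an exact 95% Poisson interval of 20.2 to 42.8 that covers counting error only. Counting error was thus small beside the spread between goats. Without goats 15 and 16 the log2 difference of IL1R2 was 3.84.

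IL18RAP was also higher after 180 min of transport, by a smaller factor. The deposited table lists it as ENSCHIG00000019718 on the plus strand of chromosome 11 from 7077033 to 7109390. At 180 min it had 744 normalized counts in goat 10, 1825 in goat 11, 405 in goat 13, 1243 in goat 14, 7395 in goat 15, 6051 in goat 16 and 1996 in goat 17. The controls had 161 in goat 1, 254 in goat 3, 95.8 in goat 4, 129 in goat 6, 156 in goat 7, 412 in goat 8 and 319 in goat 9. Here the groups overlapped at one point, since goat 13 of the 180 min group lay under control goat 8, and 6 of the 7 transported goats were above every control.

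The mean of IL18RAP was 2808 ± 2759 normalized counts at 180 min and 218 ± 115 in controls (SD, n = 7 each). The difference of the mean log2 values was 3.20 ± 0.57 (SE), 180 min minus control, and it was 3.42 without goat 10. The authors' deposited table gives IL18RAP a log2 fold change of 3.69 and an adjusted p of 8.71e-07, rank 6 by p-value and 71 by fold change among all listed genes. As with IL1R2, goats 15 and 16 stood highest, at 45.8-fold and 37.5-fold the control median, and goat 13 lowest, at 2.51-fold. Goat 10 was next to lowest for IL18RAP, at 4.61-fold, although it ranked just after goats 15 and 16 for IL1R2. Without goats 15 and 16 the log2 difference of IL18RAP was 2.45.

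**Figure D1:**
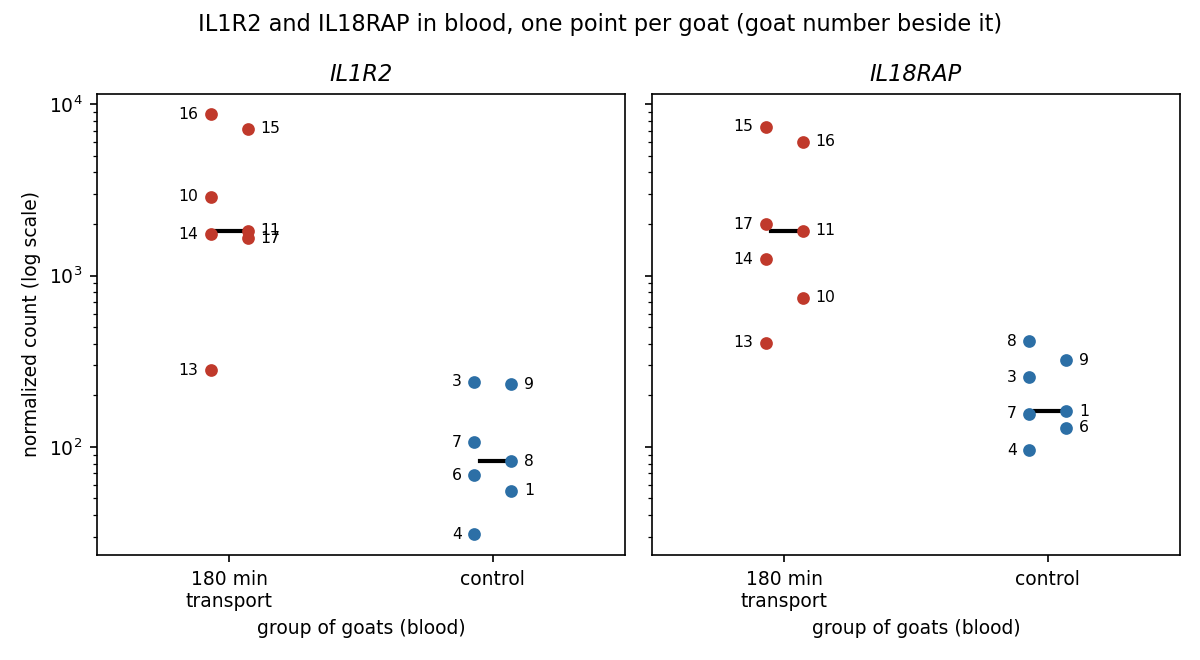
Normalized counts of IL1R2 and IL18RAP on a log scale in blood of 7 goats after 180 min of transport (red, left) and 7 control goats (blue, right), with one point and its goat number per animal and a short black bar at the group median. Goats 15 and 16 are highest in both panels, goat 13 is the lowest transported goat in both, and only the IL18RAP panel has an overlap, between goat 13 and control goat 8.

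Per unit of gene length, the order of the receptors differed between the groups. IL1R2 averaged 37.9 ± 33.7 FPKM at 180 min and 1.30 ± 1.01 FPKM in controls (SD, n = 7 each). IL18RAP averaged 30.1 ± 28.4 FPKM at 180 min and 2.38 ± 1.34 FPKM in controls (SD, n = 7 each). In controls IL1R2 was the lower of the pair in every goat, with a median FPKM ratio of IL1R2 to IL18RAP of 0.540 (range 0.204 to 0.964). At 180 min the median ratio was 1.02 (range 0.704 to 3.97), and IL1R2 was the higher of the pair in 4 of 7 goats.

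The ratios at 180 min were 3.97 in goat 10, 1.02 in goat 11, 0.704 in goat 13, 1.43 in goat 14, 0.991 in goat 15, 1.47 in goat 16 and 0.847 in goat 17. The highest ratio belongs to goat 10, the library that stood apart, and ratios of the other transported goats overlapped the upper end of the controls. On the log2 scale the ratio averaged 0.33 ± 0.82 at 180 min and -1.04 ± 0.79 in controls (SD, n = 7 each). Without goat 10 the average at 180 min was 0.057 and the highest ratio 1.47. Both genes were selected on the same contrast, so this shift was not tested.

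**Figure D2:**
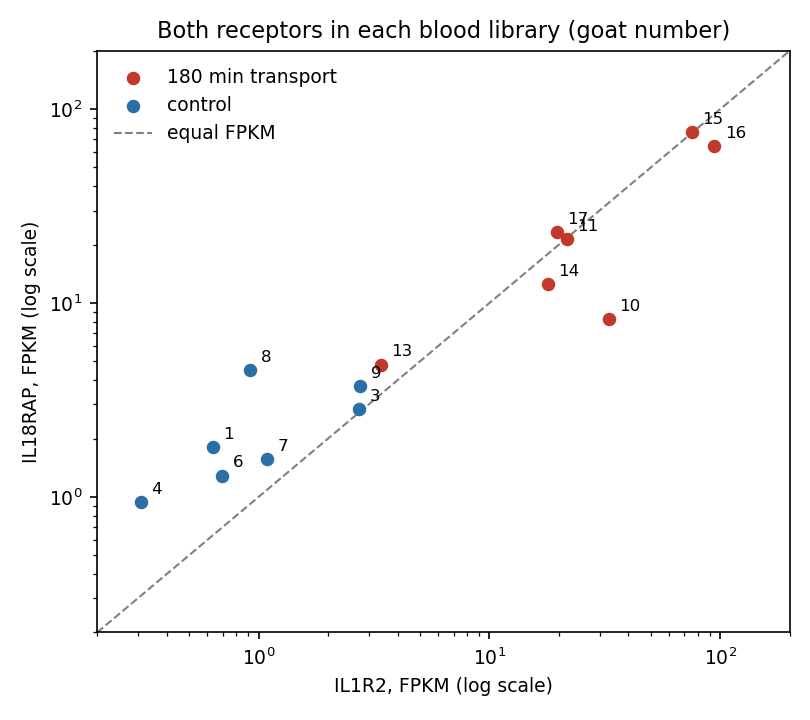
FPKM of IL1R2 (horizontal, log scale) against FPKM of IL18RAP (vertical, log scale) in each blood library, red for 180 min of transport and blue for control, with goat numbers and a dashed line of equal FPKM. All 7 controls lie above the line, where IL18RAP is the higher, and the transported goats lie on both sides of it, with goat 10 farthest below.

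Within each group r between the receptors was positive, a relation that the choice of the genes did not use, but it did not pass the correction for the 10 relations examined. Among the 7 goats transported for 180 min, Pearson's r between the log2 values of IL1R2 and IL18RAP was 0.867 (exact permutation p = 0.0125, adjusted 0.118), and Spearman's rho was 0.643 (exact permutation p = 0.139, adjusted 0.278). Among the 7 controls r was 0.679 (exact permutation p = 0.100, adjusted 0.200) and rho 0.607 (exact permutation p = 0.167, adjusted 0.278). All tests were two-sided over the 5040 orderings of the goats.

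The relation at 180 min rested in part on the extreme goats. Without goats 13 and 16, the pair farthest from the median of IL1R2, r was 0.684 over 5 goats, and without goats 15 and 16 it was 0.656 (exact permutation p = 0.233). Without goat 10 it was 0.980 over 6 goats (exact permutation p = 0.0139). In controls r was 0.572 without goats 3 and 9, again over 5 goats. The same control relation was 0.939 without goat 8 (exact permutation p = 0.0125), the control with the most IL18RAP, whose IL1R2 is the control median.

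The genes whose spread between goats was most like that of each receptor were taken by Pearson's r after removing each group's mean, over 14 goats and 846 other listed genes whose normalized counts averaged 50 or more. For IL1R2 they were SLC26A8 (r = 0.869), a membrane anion transporter known from sperm in people and mice, IL18RAP (0.816), E2F2 (0.810), a transcription factor of the cell cycle, SLC45A4 (0.806), a solute carrier, and MB21D2 (0.788). For IL18RAP they were ENSCHIG00000012101 (0.850), SOCS3 (0.833), a feedback inhibitor of cytokine signalling, IL1R2 (0.816), OAZ2 (0.803), an antizyme that restrains polyamine synthesis, and LGALS3 (0.796), a galectin. The median over all compared genes was 0.17 for IL1R2 and 0.10 for IL18RAP. Genes measured in one library share its depth and cell make-up, and these values carry no test.

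SLC26A8 followed IL1R2 closely, with 1747, 1184, 298, 860, 2376, 2070 and 660 normalized counts in goats 10, 11, 13, 14, 15, 16 and 17 of the 180 min group. Its control values were 70.6, 252, 65.9, 31.4, 154, 86.4 and 163 in goats 1, 3, 4, 6, 7, 8 and 9. Goat 13 is again the lowest transported goat and goats 15 and 16 the highest. Without goats 15 and 16 SLC26A8 and E2F2 stayed among the 5 genes most like IL1R2, and ALPL, a neutrophil marker described below, came first. IL18RAP moved to rank 61 for IL1R2 (r = 0.667), whereas by the same r IL1R2 moved to rank 11 for IL18RAP. Of the 5 genes most like IL18RAP, 1 stayed, ENSCHIG00000012101, and SOCS3 moved to rank 58 (r = 0.513).

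**Figure D3:**
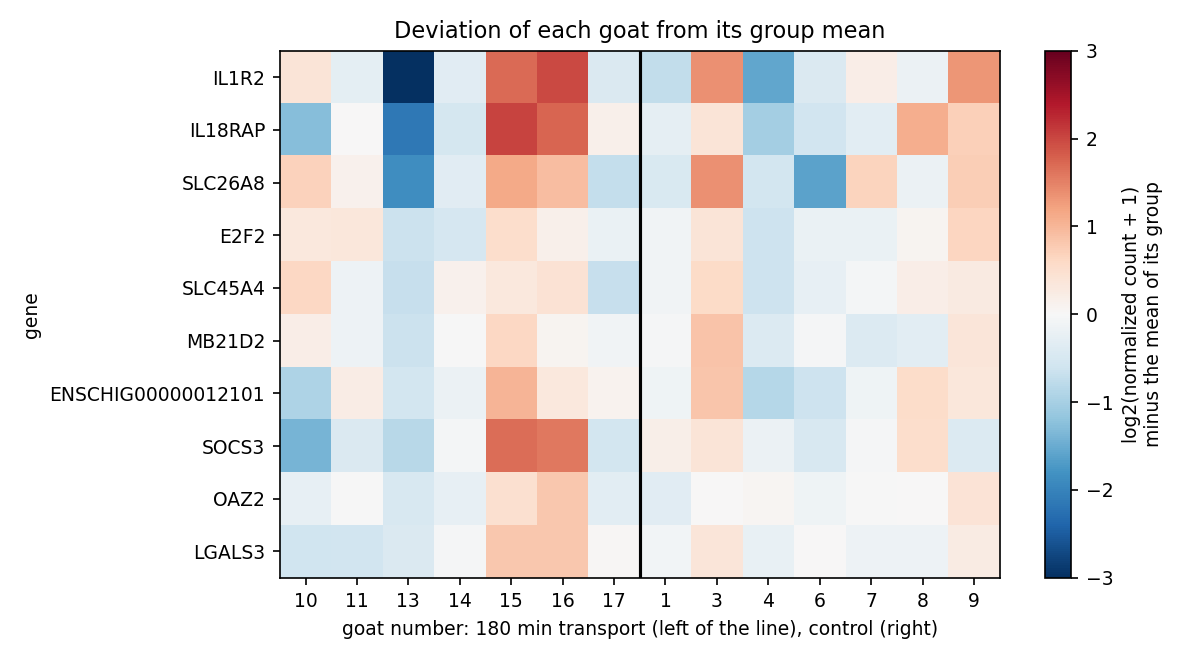
Deviation of each goat's log2(normalized count + 1) from the mean of its own group, for IL1R2, IL18RAP and the genes most like them (rows), in goats transported for 180 min (left of the black line) and controls (right); red is above the group mean and blue below it. Goats 15 and 16 are red and goat 13 blue in most rows, while goat 10 is red for IL1R2 and SLC26A8 and blue for IL18RAP and SOCS3.

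Blood is a mixture of cells, and in these bulk libraries more cells of a type and more RNA per cell cannot be told apart. Markers of the cell types known to carry the receptors were listed too. Of 25 neutrophil markers 9 were listed, all higher at 180 min (8 of 9 when counts are scaled to the summed counts of listed genes, where BPI was lower), and 2 of them were called, ALPL (alkaline phosphatase) and PGLYRP1 (a granule protein that binds bacterial cell wall). The edgeR quasi-likelihood test ended both calls (adjusted p of 0.191 for ALPL and 0.207 for PGLYRP1), while DESeq2 on the same counts kept both (adjusted p of 0.0022 and 0.0062). Of all listed genes 59.4% were higher (39.3% under that scaling) and 5.05% were called higher. The 9 summed to a lowest, median and highest value of 69109, 112551 and 240517 normalized counts at 180 min, against 21467, 49001 and 83650 in controls, and none was at 0 in all libraries. In 5 of 7 transported goats the sum was above every control, and goat 10 had the highest. The listed markers of every cell type were selected on this same contrast, so their sums are a description. Of 15 monocyte markers 5 were listed, all higher (4 of 5 under that scaling, where C1QB was lower), with 1 called, CD163, the haemoglobin scavenger receptor. Their sum was 11244 to 31933 at 180 min and 3741 to 11499 in controls.

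Most listed lymphocyte markers were lower. Of 18 T cell markers 7 were listed, all lower, with 1 called, LCK, the kinase of the T cell receptor, and their sum was 4583 to 9784 normalized counts at 180 min and 8663 to 16912 in controls. Of 15 natural killer cell markers 1 was listed, NKG7, a cytotoxic granule protein, which was called higher at 1992 to 3305 normalized counts at 180 min and 1053 to 2252 in controls, but was not higher when counts are scaled to the summed counts of listed genes. The edgeR quasi-likelihood test ended the calls of LCK and NKG7 (adjusted p of 0.245 for each), while DESeq2 on the same counts kept both (adjusted p of 0.0054 and 0.017). Of the 1247 listed genes 506 were lower, and 0.561% were called lower. Of 12 B cell markers 1 was listed, MS4A1, lower and not called, and of 10 platelet markers 1, GP1BB, at 20030 normalized counts in goat 10 and at most 3032 in the other transported goats. No marker of red cells, eosinophils and basophils, or skeletal muscle was listed. A marker that is not listed has no value here.

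The receptors were also set against the neutrophil markers of the same library. The receptors and the 9 markers were all selected on the contrast of 180 min with control, so the ratios are a description and support nothing. The sum is not weighted and leans on CSF3R, which averaged 49832 normalized counts at 180 min and 28397 in controls. S100A12 came next, at 34906 and 12222. CSF3R had the smallest log2 fold change of the 9 in the authors' deposited table, 0.81. IL1R2 had a lowest, median and highest value of 4.04, 18.6 and 77.3 normalized counts per 1000 neutrophil marker counts at 180 min, and of 1.35, 2.17 and 3.18 in controls, with no overlap. The log2 difference of this ratio was 3.28 ± 0.59 (SE, n = 7 each), and 3.40 without goat 10. IL18RAP had 3.09, 17.4 and 62.6 at 180 min and 3.04, 4.38 and 7.04 in controls, with 5 of 7 transported goats above every control and a log2 difference of 1.90 ± 0.62, or 2.30 without goat 10. Goat 10, which had the most neutrophil marker counts, was the lowest of the transported goats by this ratio for IL18RAP. The share of either receptor's difference that goes with the number of neutrophils was not tested.

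In both groups r with the neutrophil markers was larger for IL1R2 than for IL18RAP, and the difference between the genes was not tested. Against the mean log2 value of the neutrophil markers, IL1R2 had r = 0.762 at 180 min (exact permutation p = 0.0470, adjusted 0.118) and 0.812 in controls (exact permutation p = 0.0298, adjusted 0.118). The corresponding rho was 0.821 at 180 min (exact permutation p = 0.0341, adjusted 0.171) and 0.893 in controls (exact permutation p = 0.0123, adjusted 0.123). Without the 2 goats farthest from the median of the markers, r was 0.972 at 180 min (without goats 10 and 15) and 0.623 in controls (without goats 4 and 6).

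For IL18RAP against the neutrophil markers, r was 0.374 at 180 min (exact permutation p = 0.408, adjusted 0.510) and 0.424 in controls (exact permutation p = 0.333, adjusted 0.475), with rho of 0.321 at 180 min (exact permutation p = 0.498, adjusted 0.553) and 0.571 in controls (exact permutation p = 0.200, adjusted 0.286). Without the same pairs of goats it was 0.923 at 180 min and -0.405 in controls, so its size and, in controls, its sign rested on 2 goats. Against the T cell and natural killer cell markers, r for IL1R2 was -0.153 at 180 min (exact permutation p = 0.627, adjusted 0.627) and -0.788 in controls (exact permutation p = 0.0367, adjusted 0.118), the control value being 0.0656 without goats 3 and 9. Its rho was -0.429 at 180 min (exact permutation p = 0.354, adjusted 0.442) and -0.607 in controls (exact permutation p = 0.167, adjusted 0.278). For IL18RAP against these markers, r was 0.302 at 180 min (exact permutation p = 0.534, adjusted 0.593) and -0.611 in controls (exact permutation p = 0.152, adjusted 0.253). Its rho was 0.107 at 180 min (exact permutation p = 0.840, adjusted 0.840) and -0.750 in controls (exact permutation p = 0.0663, adjusted 0.221), and its r was -0.389 at 180 min without goats 10 and 17 and -0.537 in controls without goats 3 and 9. These T cell and natural killer cell markers were 7 of T cells and 1 of natural killer cells, NKG7, so their mean log2 value mostly reflects T cell markers. Among controls NKG7 was highest in goats 9 and 8 (2252 and 1707 normalized counts), which also had the most IL18RAP. The relation of either receptor with NKG7 alone was not tested. None of the 10 relations passed the correction.

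**Figure D4:**
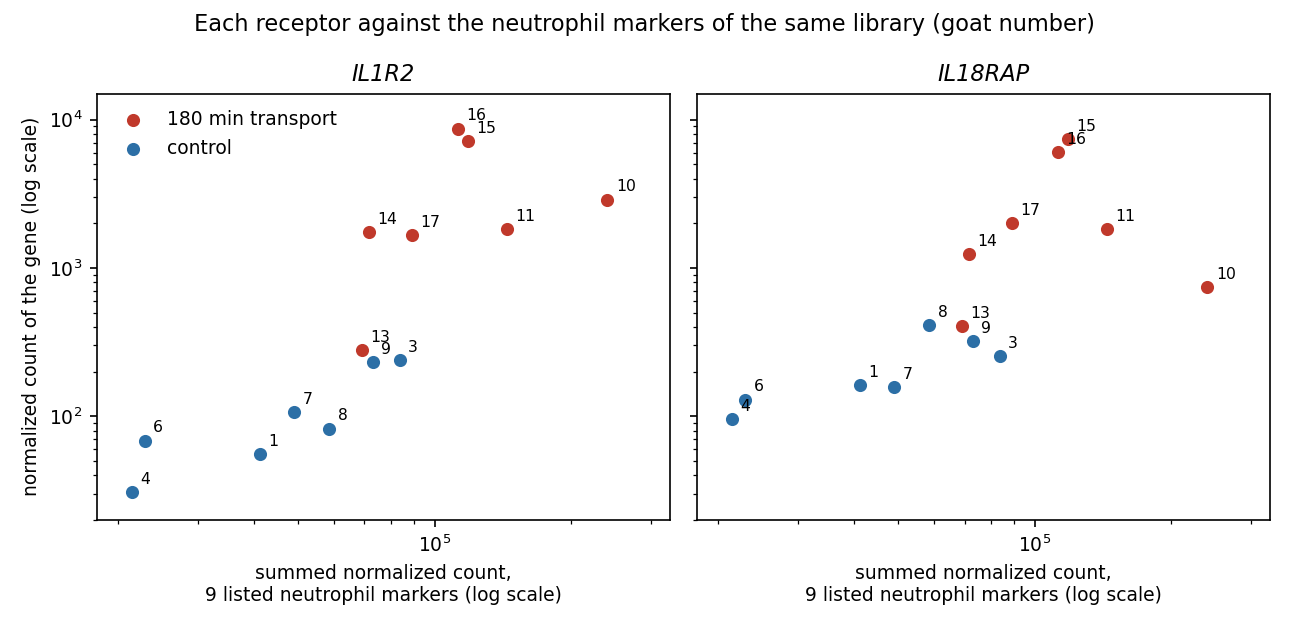
Normalized counts of IL1R2 (left) and IL18RAP (right) against the summed normalized counts of the 9 listed neutrophil markers of the same library, both on log scales, red for 180 min of transport and blue for control, with goat numbers. With a marker sum of 71570, goat 14 lies above control goats 3 and 9 for both genes, whose sums are 83650 and 72952, while goat 13 lies beside them, and goat 10 has the highest marker sum without the highest receptor counts.

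The receptor genes are near neighbours on chromosome 11. A gap of 426687 bases separates them in the coordinates of the deposited table, and in the RefSeq annotation of the ARS1.2 goat assembly 4 genes lie between them: IL1R1, the signalling receptor of interleukin 1, IL1RL2, the receptor of interleukin 36, IL1RL1, the receptor of interleukin 33, and IL18R1, the binding chain of the interleukin 18 receptor. None of the 4 was listed in any of the 6 tables, so both ends of this cluster were listed and its middle was not. Within 1000000 bases on either side of the pair, 5 genes were listed, IL1R2, IL18RAP, RNF149, MAP4K4 and RF00578, and the receptors were the 2 called. On the whole chromosome 44 genes were listed and 4 called, and of all 1247 listed genes 5.05% were called higher and 0.561% lower. The receptors were chosen on this contrast, so their share of the window is a description. RNF149, a ubiquitin ligase, had 8133 ± 4399 normalized counts at 180 min and 4199 ± 1105 in controls (SD, n = 7 each), and was not called. MAP4K4, a stress-responsive kinase, had 2429 ± 1370 at 180 min and 1297 ± 518 in controls and was not called either, and both genes were lower at 180 min when counts are scaled to the summed counts of listed genes. Of a list of 24 genes known to surround the cluster, 5 were listed, these 4 and POU3F3, which had at most 0.852 normalized counts at 180 min and 39.3 in controls. The absence of a gene from a table says only that its unadjusted p-value was not under 0.05 or that it was not considered.

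The deposited table also has a column headed as transcription factor family, whose entries for the receptors are names of protein domains, and the receptors differ in it. IL18RAP is marked TIR, as are 4 other listed genes of blood at 180 min: IL1RAP and the Toll-like receptors TLR2, TLR4 and TLR7. Of these 5, IL18RAP was the 1 called. IL1R2 is marked RVT_1, a name used for reverse transcriptase domains, and is the only listed gene of that table with this mark. How the authors assigned these marks is not stated in the sources used here. All 5 genes marked TIR were higher at 180 min in the authors' deposited table. Of all listed genes 59.4% were higher there (39.3% when counts are scaled to the summed counts of listed genes), and 5.05% were called higher. All 5 were listed for this same contrast, so their direction is a description.

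Beside the receptors, some sensors, kinases and target genes of the interleukin 1 system were listed, but no ligand. Of 109 genes in lists of ligands, receptors, processing genes, signalling genes and targets, 15 were listed in blood at 180 min, 14 of them higher and 1 lower, and 6 were called, all higher. With counts scaled to the summed counts of listed genes 12 were higher and 3 lower, CEBPB and SOCS3 having changed sides. The median log2 fold change of the 15 in the authors' deposited table was 1.66, against 0.78 for all 1247 listed genes. Of these 1247, 59.4% were higher with the authors' size factors and 39.3% when scaled to the summed counts of listed genes, and 5.05% were called higher. The 15 and the 6 called include IL1R2 and IL18RAP, which were chosen on this contrast, so the counts and the median are a description. Of 12 ligands and ligand antagonists, among them IL1A, IL1B, IL1RN and IL18, none was listed. Of 10 receptors 3 were listed, IL1R2, IL18RAP and IL1RAP.

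IL1RAP, the accessory chain that IL1R2 and IL1R1 both bind, had 0 normalized counts in goat 10, 172 in goat 11, 140 in goat 13, 1723 in goat 14, 3679 in goat 15, 2398 in goat 16 and 302 in goat 17 of the 180 min group. In controls it ranged from 29.8 to 380 with a median of 118. It was thus above every control in goats 14, 15 and 16, within their range in goats 11, 13 and 17, and without a count in goat 10. The log2 difference was 0.94 ± 1.39 (SE) and 2.29 without goat 10. The authors' deposited table gives a log2 fold change of 2.62 and an adjusted p of 0.226, and the gene was not called.

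Of 18 genes of ligand processing, 2 were listed, both sensors of inflammasomes. NLRP1 rose, with 3894 ± 1226 normalized counts at 180 min and 1747 ± 377 in controls (SD, n = 7 each), a log2 difference of 1.13 ± 0.22 (SE) and no overlap between the groups. NLRP3 was not called, with 324 ± 313 at 180 min, 102 ± 69.9 in controls and a log2 difference of 1.43 ± 0.72. Of 36 signalling genes 2 were listed. MAPK14, the p38 alpha kinase, rose, with 2658 ± 1611 normalized counts at 180 min and 970 ± 201 in controls and a log2 difference of 1.28 ± 0.32. TIRAP, an adaptor of Toll-like receptors, was not called at a log2 difference of 2.41 ± 0.92.

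Of 33 target genes 8 were listed and 2 were called. PTX3, a secreted pattern recognition protein, was listed with a larger difference than either receptor, 5.51 ± 0.81 on the log2 scale. It had 2476, 7975, 1804, 6527, 58703, 46487 and 9811 normalized counts in goats 10, 11, 13, 14, 15, 16 and 17 at 180 min, against 69.0 to 1100 in controls. Its highest and lowest transported goats were those of IL18RAP and IL1R2, goats 15 and 16 at the top and goat 13 at the bottom. CEBPD, a transcription factor of the acute phase response, rose by 1.59 ± 0.33 on the log2 scale, with 17843 ± 4424 normalized counts at 180 min and 6443 ± 3372 in controls. TNIP1, SOCS3, CXCL8, TNFAIP6 and CEBPB were listed higher and CCL2 lower, and none of these was called. For CEBPB the log2 difference was 0.55 ± 0.63 (SE), and its median was 1983 normalized counts at 180 min and 2053 in controls. The edgeR quasi-likelihood test, fitted on the listed genes alone, ended the calls of NLRP1, MAPK14 and CEBPD (adjusted p = 0.118, 0.141 and 0.141). The other 3 of the 6 calls, IL1R2, IL18RAP and PTX3, stayed, and DESeq2 kept all 6. All 6 genes were listed for this same contrast on the same counts, so a kept call is no separate support.

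**Figure D5:**
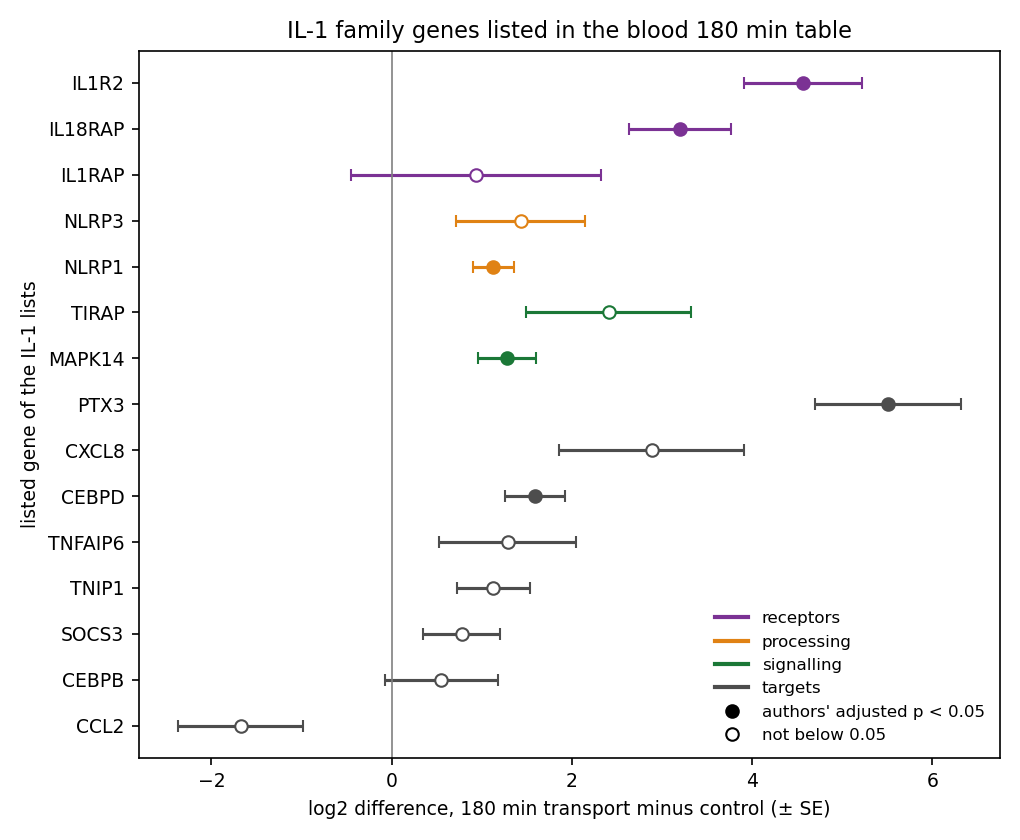
Difference of mean log2(normalized count + 1), 180 min of transport minus control, with its standard error (bars, n = 7 goats each), for the 15 listed genes of the interleukin 1 lists in blood, coloured by list; filled points have an adjusted p under 0.05 in the authors' deposited table. IL1R2, IL18RAP and PTX3 lie farthest right among the filled points, and the bars of IL1RAP and CEBPB span 0.

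IL1R2 is known as a glucocorticoid-induced gene, and a list of 25 other such genes was set beside it. Of these, 9 were listed in blood at 180 min, all higher (6 of 9 when scaled to the summed counts of listed genes), and 4 were called. Of all listed genes 59.4% were higher (39.3% under that scaling) and 5.05% were called higher. The rest of the list, among them FKBP5, TSC22D3, ZBTB16 and KLF9, was not listed. CEBPD and CEBPB stand in this list and among the targets above. GLUL, glutamine synthetase, rose by 1.78 ± 0.37 on the log2 scale (SE), DDIT4, an inhibitor of mTOR signalling, by 1.63 ± 0.33, CD163 by 1.90 ± 0.43 and CEBPD by the value above. The log2 differences of these 4 were smaller than that of either receptor. The edgeR quasi-likelihood test ended the calls of all 4 (adjusted p of 0.118 for GLUL, 0.122 for DDIT4, 0.145 for CD163 and 0.141 for CEBPD). DESeq2 kept all 4 (adjusted p of 0.00075, 0.0023, 0.0049 and 0.0031 in the same order). Both refits use the same counts, so neither is separate evidence.

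IL1R2 and IL18RAP were in none of the other 5 tables, so their levels in blood at 30 min and in muscle are not analysed here. The fold changes in this paragraph are those of the authors' deposited tables, and comparisons of the same tissue set share their controls. Blood at 30 min listed 0 of 12 ligands and 0 of 10 receptors, and in all these lists together 9 of 109 genes with 2 called, in a table where 1.16% of the listed genes were called. These were NFKBIA, the NF-kB inhibitor, and CEBPB, with log2 fold changes of 1.70 and 1.45. NLRP12, a regulatory NLR protein, was listed at 0.81 and not called.

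Muscle listed 1 receptor of the family, SIGIRR, an inhibitory member that carries a TIR domain. It fell in the 24H set at 30 min, with a log2 fold change of -0.81 in the authors' deposited table (adjusted p = 0.0332), in a table where 37% of the listed genes were called. Of the 109 genes, 16 were listed there, 7 called higher and 2 lower. GSDMD, the pore protein through which interleukin 1 leaves the cell, fell at -1.18, and NEK7, a partner of NLRP3, rose at 0.90. MAP3K7 (0.88), CHUK (0.55), TAB2 (0.66) and MAPK8 (0.60), kinases and an adaptor of the pathway, and the targets PTX3 (1.56) and ICAM1 (1.00) were called higher as well.

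In the other muscle tables the ligands and processing genes that were listed were not called. At 30 min in the 6D set, where 0.24% of listed genes were called, the log2 fold changes in the authors' deposited table were -0.69 for IL33, -1.06 for CASP1, which cleaves interleukin 1 beta and interleukin 18, 0.73 for NEK7, -0.66 for GSDMD and -0.68 for PYCARD, the inflammasome adaptor. At 180 min in the 24H set, with 14.4% called, they were -1.13 for IL1B and -0.83 for IL33. At 180 min in the 6D set, with 7.35% called, they were -0.79 for GSDMD and -0.78 for PYCARD, and the targets CCL2, a chemokine, and PTGES, a prostaglandin synthase, fell with -1.98 and -1.34. The edgeR quasi-likelihood test ended the calls of the genes named in these 5 tables. No table other than that of blood at 180 min listed a signalling or decoy receptor of interleukin 1, interleukin 18, interleukin 33 or interleukin 36.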

How the data were processed

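Whole blood and muscle RNA of goats was sequenced, and 72 libraries with 6 tables of selected genes were used. The sources used here do not name the aligner, counter, strand setting, annotation or genome build. Normalized counts are a signal that the authors made by dividing each library's counts by 1 size factor, as checked on the values, separately in each table. Raw read counts, FPKM, a log2 fold change, a p-value and an adjusted p-value per gene were deposited beside them, per the file headers. Every listed gene had an unadjusted p-value under 0.05, so the tables are selections and whole-genome tests, planned for complete tables, were not made.

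Members and gene lists were chosen with earlier results of these data known. Log2 differences and their SE came from limma 3.58.1 (trend) on log2(normalized count + 1) over the whole blood 180 min table. Alternatives were edgeR 4.0.16 (quasi-likelihood) and DESeq2 1.42.0 on raw counts with the authors' size factors, adjusted over the 9944 genes the authors had adjusted there (Benjamini-Hochberg, 0.05), and likewise in the other tables. All were tested on simulated data. Correlations used scipy 1.17.1. R 4.3.3, Python 3.11.15, numpy 2.4.6 and pandas 2.3.3 were used.

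Named genes are the receptors, every listed ligand, receptor and processing gene, the called genes of the signalling, target, neighbour and glucocorticoid lists, and the 5 genes most like each receptor. In the 5 tables without the receptors, glucocorticoid and neighbour genes, and uncalled signalling and target genes, were left out, a choice made after the values were seen. Other genes named, such as those of the figure, the chromosome window and the markers, complete a count. One muscle goat, number 9, is a control by its title and a 180 min goat by its treatment label; it was used as a control. A blood control carries the same number. Without this blood library the log2 difference was 4.79 for IL1R2 and 3.32 for IL18RAP.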

Additional observations from a re-analysis of the deposited data

Results flagged for a closer look

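IL1RAP in goat 10 of the 180 min group stood apart from the other 6 goats of its group. It was 0 normalized counts there, against 140 in the next lowest goat and 3679 in the highest, and the gap on the log2 scale was 0.603 of the whole range. This library was also the shallowest of its group and had the most listed genes without a count among the 7. In all, 38 groups of values were examined in this way, and chance flags about 1 in 20.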

How the results depend on the processing

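IL1R2 and IL18RAP kept their direction under all 25 alternatives, with log2 differences of 3.69 to 5.07 and 2.33 to 3.69. The alternatives reuse the libraries on which the genes were chosen, so a kept direction is no separate support. Leaving out each goat gave 4.24 to 5.07 for IL1R2 and 2.86 to 3.56 for IL18RAP. Scaling to the listed genes' total gave the lowest values, 3.69 and 2.33; it moved the median of all listed genes by -0.88 and the share of genes listed higher to 39.3%, against 59.4%. Median-of-ratios scaling over listed genes moved that median by -0.42. Listed genes held 13 ± 6.19% of counts at 180 min and 6.60 ± 2.08% in controls.

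The correlation between the receptors was 0.784 to 0.980 at 180 min and 0.479 to 0.939 in controls when each goat was left out. At 180 min its unadjusted exact permutation p passed 0.05 without goat 13 (0.0944), 15 (0.0722) or 16 (0.0722), and r was 0.656 without goats 15 and 16 together, an alternative chosen after seeing the data, like the ratios without goat 10. In controls it was 0.939 without goat 8. The cause was not tested.

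The count of called genes in the interleukin 1 lists at 180 min in blood was 3 with edgeR and 6 in the authors' deposited table, with DESeq2 and among genes averaging 10 or more normalized counts. Limma, adjusted only over the listed genes, called 8, and 4 of the 6 remained in that fit without goats 15 and 16. The listed genes were already selected on their unadjusted p, so this adjustment is too lenient. Its counts, here and below, are not comparable with the others. In the other tables edgeR called 0. At 30 min its unadjusted p was under 0.05 for 8 of 9 listed genes in blood, 15 of 16 in muscle 24H and 9 of 12 in muscle 6D. At 180 min it was so for 9 of 9 in muscle 24H and 10 of 11 in muscle 6D. Genes were listed for an unadjusted p under 0.05 on these same counts, so these shares follow from the selection and support nothing. DESeq2 called 3, 8, 0, 0 and 2 and the within-table limma fit 4, 11, 0, 4 and 3 in the same tables. No paired analysis was possible because transported and control goats carry different numbers. Alternatives for the receptors in muscle were not run, since no muscle table lists them. The effect of depth on these values was not tested. A gene missing from a table has no value.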
